A study of Mus musculus with 12 samples.

Results

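Lrrc34, Nat1, Flvcr2, Pde8a and Edil3 were studied as 5 genes of 19938 measured on microarrays while Esrrb was withdrawn from mouse embryonic stem cells (ESCs). They were chosen by their day 1 minus day 0 change in mean signal, as genes among those with the largest falls. Each is read by 1 probe set that carries a single gene symbol. Among all genes ordered by that change, Esrrb came at position 1, Lrrc34 at 2, Nat1 at 3, Flvcr2 at 5, Pde8a at 6 and Edil3 at 7. Mgat4c at position 4, with a change of -2.0 on the log2 scale, was not among the genes chosen. At the lower edge Edil3, at -1.73, stands just inside and Tfcp2l1, at -1.70, just outside.

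The cells were Esrrb_R, an AINV15 rescue clone, in which the cell's own Esrrb is silenced by a short hairpin RNA and a GFP-tagged Esrrb that escapes the hairpin is made only while doxycycline (Dox) is present. The groups, 4 days with 3 biological replicates each, were hybridized to Affymetrix Mouse Gene 1.0 ST arrays, 12 in all, at day 0 with 1 µg/ml Dox and at days 1, 3 and 5 after Dox had been removed. The cells of every day carry the hairpin, the inducer protein rtTA and the Dox-dependent transgene, and were grown in serum and Lif without feeder cells, although fibroblasts from mouse embryos serve to maintain the line. All arrays come from 1 rescue clone, and none holds cells without the transgene that lost Dox or were kept in Dox for 5 days, so loss of Esrrb, loss of Dox and time in culture cannot be told apart.

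Esrrb, estrogen-related receptor beta, is an orphan nuclear receptor that binds DNA as a transcription factor and helps to hold ESCs in the naive pluripotent state. The 5 genes do different work in the cell. Lrrc34 encodes a leucine-rich repeat protein found in the nucleolus of ESCs. Nat1 encodes an arylamine N-acetyltransferase, which moves an acetyl group from acetyl coenzyme A onto aromatic amines and hydrazines. Flvcr2 encodes a membrane transporter of the Slc49 family that has been tied to heme and to choline. Pde8a encodes a phosphodiesterase of high affinity that breaks down cyclic AMP (cAMP), the second messenger made by adenylyl cyclases. Edil3 encodes a secreted matrix protein with EGF-like and discoidin-like domains, whose Arg-Gly-Asp (RGD) motif binds integrins that contain the alpha v chain.

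The sequence just before the start of a gene is shown for the 3 genes with an entry in the RefSeq promoter table (assembly GRCm38.p6), because the study asked which genes Esrrb controls directly. Each run holds the 250 bases before the annotated start, 5′ to 3′ on the strand of the gene. Lrrc34 lies on chromosome 3 on the minus strand (chr3:30647819-30648068), Flvcr2 on chromosome 12 on the plus strand (chr12:85746289-85746538) and Pde8a on chromosome 7 on the plus strand (chr7:81213015-81213264). Capitals mark AGGTCA, the half-site that many nuclear receptors share.
Lrrc34: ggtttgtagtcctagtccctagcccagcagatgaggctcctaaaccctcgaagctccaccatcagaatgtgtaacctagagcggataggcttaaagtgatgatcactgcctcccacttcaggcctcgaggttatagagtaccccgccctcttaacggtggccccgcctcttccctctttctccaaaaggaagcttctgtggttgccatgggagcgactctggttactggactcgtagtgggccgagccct
Flvcr2: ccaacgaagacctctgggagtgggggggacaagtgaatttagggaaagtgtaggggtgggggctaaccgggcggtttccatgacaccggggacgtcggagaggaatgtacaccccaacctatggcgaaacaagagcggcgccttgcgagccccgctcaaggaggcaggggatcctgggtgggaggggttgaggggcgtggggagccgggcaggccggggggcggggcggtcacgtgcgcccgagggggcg
Pde8a: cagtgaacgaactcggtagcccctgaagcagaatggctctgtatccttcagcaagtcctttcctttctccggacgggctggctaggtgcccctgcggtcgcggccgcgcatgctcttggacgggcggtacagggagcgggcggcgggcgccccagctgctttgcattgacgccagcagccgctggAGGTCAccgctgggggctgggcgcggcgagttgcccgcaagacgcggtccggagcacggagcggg
The window of 300 bases searched also takes in the 50 bases after the start. Neither AAGGTCA nor TNAAGGTCA, forms of the longer element that estrogen-related receptors bind as single molecules, was found on either strand in any of the 3 windows. Of 32851 promoter windows of this length, 4.72% held AAGGTCA and 1.28% held TNAAGGTCA. AGGTCA, which lies inside both of these and was added after they had been searched, was found once, on the strand of Pde8a, starting 65 bases before its start, and 16.3% of all windows held it. The absence of a match says only that these letters are not in these windows. Guanine and cytosine made up 56.3% of the Lrrc34 window, 68.7% of the Flvcr2 window and 68.7% of the Pde8a window, beside a median of 52.7% over all promoters. The CpG dinucleotides numbered 11 for Lrrc34, 24 for Flvcr2 and 34 for Pde8a, beside a median of 7. In its table of integrated data the study marked Pde8a as a gene bound by Esrrb in ChIP-seq and marked Nat1 and Edil3 as not bound. The rows read for this hold those 3 genes, and marks for Lrrc34 and Flvcr2 were not used here, so nothing is said of binding at them. For these marks the study kept only ChIP-seq scores in a stretch upstream of each gene, from cells with Dox. The mark of not bound therefore does not cover sites elsewhere, such as inside a gene or far from it.

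The signals below are on the log2 scale, so a difference of 1 is a doubling or a halving, and SDs are over 3 arrays. Probes differ in brightness, so signals of different genes are not compared. Esrrb itself had signals of 11.59, 11.54 and 11.63 on the day 0 arrays, 9.09, 9.15 and 9.16 at day 1, 8.20, 8.07 and 8.34 at day 3, and 8.15, 8.28 and 8.13 at day 5. Its day 1 arrays lay far below its day 0 arrays with no overlap, and its mean signal was 18.2% of the day 0 signal at day 1, 9.57% at day 3 and 9.47% at day 5. The 7 ESC markers (Pou5f1, Sox2, Nanog, Zfp42, Dppa5a, Utf1 and Tdgf1) were bright on every array, with a mean over the list of 12.38 to 12.44 at day 0, 12.14 to 12.17 at day 1, 11.90 to 11.93 at day 3 and 11.62 to 11.70 at day 5. The mean over 10 fibroblast markers was 7.43 to 7.51 at day 0, 7.40 to 7.43 at day 1, 6.98 to 7.00 at day 3 and 7.16 to 7.31 at day 5, and 2 of the 10 had a mean under the 25th percentile of genes. In such samples fewer cells of a type and less RNA per cell cannot be told apart.

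**Figure D1:**
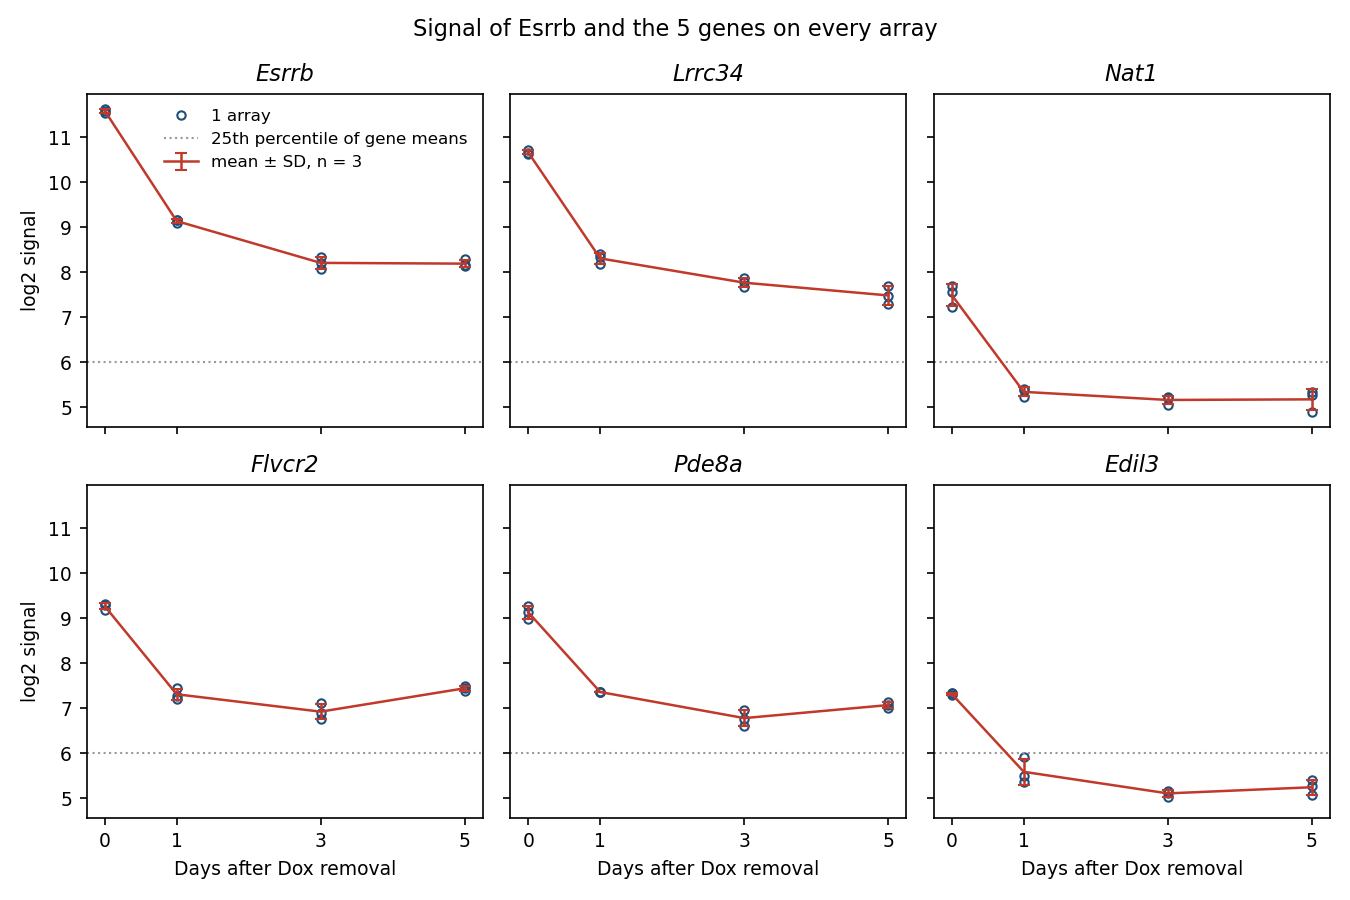
Signal of Esrrb and the 5 genes on each of the 12 arrays (log2 signal, vertical axis) by day after Dox removal (horizontal axis). Open circles are arrays, the red line joins the day means with bars of 1 SD (n = 3), and the dotted line is 6.01, the 25th percentile of all gene means. All day 1, day 3 and day 5 arrays lie below the day 0 arrays of the same gene, and Nat1 and Edil3 lie under the dotted line from day 1 on.

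The drop between day 0 and day 1 chose the genes, so it is described and not tested. Every day 1 array of all 5 genes was below every day 0 array of that gene. Of all genes, 12.6% had their day 1 arrays so placed. The 5 changes ran from -2.36 to -1.73 with a median of -1.96, and the median over all genes was 0.01. At day 1, 40 genes were more than 2-fold lower than at day 0, and there were 203 such genes at day 3 and 286 at day 5.

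Lrrc34 had signals of 10.64, 10.71 and 10.63 at day 0, 8.34, 8.40 and 8.17 at day 1, 7.86, 7.66 and 7.77 at day 3, and 7.28, 7.70 and 7.46 at day 5. The day 0, day 1 and day 3 arrays form 3 separate steps downward, and the day 5 arrays overlap those of day 3. Its mean was 8.31 ± 0.12 at day 1 and 10.66 ± 0.04 at day 0, a change of -2.36 (SE 0.10) that left 19.5% of the day 0 signal. It was 13.4% of the day 0 signal at day 3 and had changed by -3.18 at day 5, a 9.08-fold lower signal than at day 0. By day 1 it had made 74.0% of its day 5 change, and Pde8a had made 85.8%, Edil3 83.4% and Nat1 92.9% of theirs. For Flvcr2 the figure was 107%, since its day 1 signal lay below its day 5 signal.

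Nat1 had signals of 7.56, 7.69 and 7.22 at day 0, 5.41, 5.38 and 5.22 at day 1, 5.22, 5.20 and 5.05 at day 3, and 4.90, 5.34 and 5.27 at day 5. The arrays of days 1, 3 and 5 overlap with each other and stand clear of day 0. Its mean was 5.34 ± 0.10 at day 1 and 7.49 ± 0.24 at day 0, a change of -2.16 (SE 0.13) that left 22.4% of the day 0 signal. It stood at 20.0% of the day 0 signal at day 5. Its mean over the 12 arrays, 5.79, lies below 6.01, the 25th percentile of all genes, so its later arrays were dim.

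Flvcr2 had signals of 9.30, 9.19 and 9.32 at day 0, 7.28, 7.44 and 7.21 at day 1, 7.11, 6.89 and 6.77 at day 3, and 7.38, 7.50 and 7.45 at day 5. Its lowest arrays were those of day 3, all below the arrays of days 1 and 5. Its mean was 7.31 ± 0.12 at day 1 and 9.27 ± 0.07 at day 0, a change of -1.96 (SE 0.09) that left 25.7% of the day 0 signal. The signal was 19.7% of day 0 at day 3 and 28.1% at day 5.

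Pde8a had signals of 9.13, 9.28 and 8.99 at day 0, 7.36, 7.37 and 7.35 at day 1, 6.97, 6.60 and 6.77 at day 3, and 7.01, 7.07 and 7.13 at day 5. As for Flvcr2, the day 3 arrays were the lowest, below all arrays of days 1 and 5. Its mean was 7.36 ± 0.01 at day 1 and 9.13 ± 0.15 at day 0, a change of -1.77 (SE 0.09) that left 29.3% of the day 0 signal. The signal was 19.6% of day 0 at day 3 and 23.9% at day 5.

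Edil3 had signals of 7.33, 7.33 and 7.29 at day 0, 5.49, 5.91 and 5.36 at day 1, 5.17, 5.03 and 5.12 at day 3, and 5.26, 5.07 and 5.40 at day 5. The second day 1 array was the highest of those taken after Dox removal, and its day 1 SD of 0.29 is larger than the SD of 0.03 at day 0. Its mean was 5.59 ± 0.29 at day 1 and 7.32 ± 0.03 at day 0, a change of -1.73 (SE 0.12) that left 30.2% of the day 0 signal. It was 21.6% of day 0 at day 3 and 23.8% at day 5. With a mean of 5.81 over the 12 arrays, Edil3, like Nat1, lies under the 25th percentile of all genes.

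Lrrc34, Flvcr2 and Pde8a had means over the 12 arrays of 8.55, 7.74 and 7.58, above that percentile. Every day 3 and day 5 array of all 5 genes also lay below the day 0 arrays, where 19.4% and 22.1% of all genes did so. Between days 1 and 3, 4 of the 5 (all but Nat1) had every day 3 array below every day 1 array, as did 21.6% of all genes. The change from day 1 to day 3 was -0.54 for Lrrc34, -0.18 for Nat1, -0.39 for Flvcr2, -0.58 for Pde8a and -0.48 for Edil3. These differences share arrays with the choice of genes and are given without a test. By day 5 the 5 genes were spread more widely in the order of all changes from day 0, with Lrrc34 at position 4, Nat1 at 21, Edil3 at 33, Pde8a at 35 and Flvcr2 at 45.

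**Figure D2:**
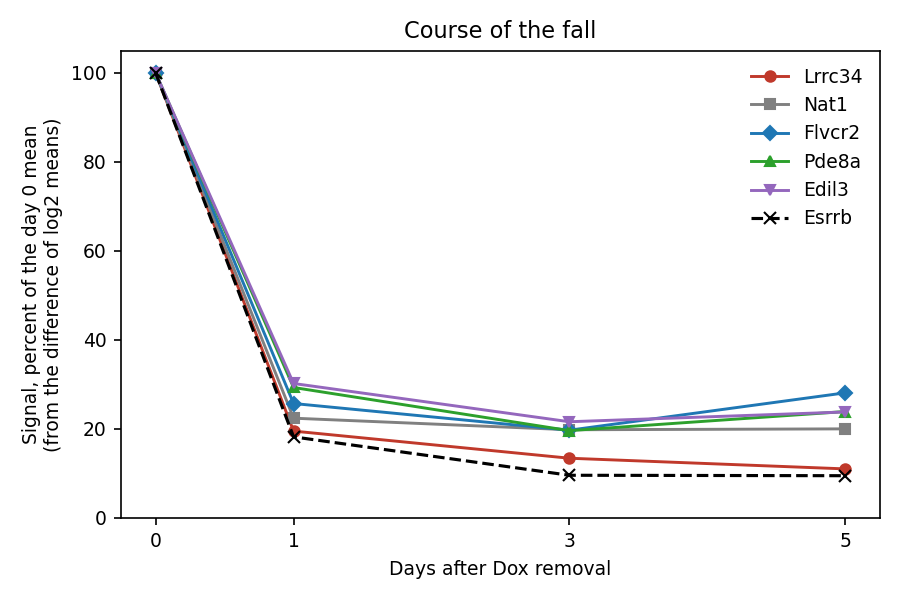
Mean signal of the 5 genes and of Esrrb (dashed) as a percent of the day 0 mean (vertical axis, from the difference of log2 means) by day after Dox removal (horizontal axis). All lie between 18.2% and 30.2% at day 1, and at day 5 Flvcr2 stands at 28.1% while Lrrc34 is 9.08-fold below day 0.

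Day 5 against day 3 is the comparison whose 2 means share no array with the choice of genes, and the 5 genes can be tested in it. The spread used in the test comes from all 12 arrays, those of days 0 and 1 included. With that spread Flvcr2 and Pde8a were called higher, Lrrc34 was called lower, and Nat1 and Edil3 did not pass. In a fit of days 3 and 5 alone only Flvcr2 was called (limma adjusted p = 0.0039, with 0.059 for Pde8a and 0.091 for Lrrc34). Of the 3 calls with all 12 arrays, that of Pde8a was lost under 9 of 23 alternatives and that of Lrrc34 under 15. Over all genes, 13.0% were called higher and 12.2% lower at day 5 than at day 3 (limma, Benjamini-Hochberg adjusted p under 0.05 over 19938 genes). The median change of the 5 genes was 0.14, and that of all genes was -0.02.

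Flvcr2 averaged 7.44 ± 0.06 at day 5 and 6.92 ± 0.17 at day 3, a change of 0.52 (95% interval 0.33 to 0.70, limma adjusted p = 0.0007). All day 5 arrays were above all day 3 arrays, and the day 5 signal was 143% of that at day 3. The change stayed between 0.44 and 0.61 when any 1 array was left out, and the call was lost under the methods' t-test with adjustment (adjusted p = 0.055). Pde8a averaged 7.07 ± 0.06 at day 5 and 6.78 ± 0.19 at day 3, a change of 0.29 (95% interval 0.09 to 0.49, limma adjusted p = 0.034), again with all day 5 arrays above all day 3 arrays. This call was lost without the second day 3 array (0.20, adjusted p = 0.15), the third day 3 array (adjusted p = 0.084), the second day 5 array (0.068) or the third day 5 array (0.11). It was also lost with the replicate number as a block (0.054), with every probe set (0.067), with the compared days only (0.059) and under the methods' t-test, adjusted (0.19) or not (0.063). The fibroblast marker list, at 7.16 to 7.31 on the day 5 arrays and 6.98 to 7.00 on the day 3 arrays, moved in the same direction as Flvcr2 and Pde8a, and its part in these changes was not tested.

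Lrrc34 averaged 7.48 ± 0.21 at day 5 and 7.77 ± 0.10 at day 3, a change of -0.29 (95% interval -0.50 to -0.08, limma adjusted p = 0.047), with arrays that overlap. The call held without the third day 1 array or the second array of day 3 or day 5, and was lost without any 1 of the other arrays, with the smallest change, -0.19, without the first day 5 array (adjusted p = 0.19). Nat1 averaged 5.17 ± 0.24 at day 5 and 5.16 ± 0.09 at day 3, a difference of 0.01 (95% interval -0.26 to 0.29, limma adjusted p = 0.96). Edil3 averaged 5.25 ± 0.16 at day 5 and 5.11 ± 0.07 at day 3, a difference of 0.14 (95% interval -0.12 to 0.40, limma adjusted p = 0.45). The upper ends of these intervals reach the 0.29 measured for Pde8a. Esrrb differed by -0.01 over the same days (limma adjusted p = 0.92).

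Whether the 5 genes differed from each other in this change was tested on the difference of 2 genes on the same array, for 10 pairs, with limma p-values adjusted over the pairs. Of the 10 pairs, 6 passed by limma, and 3 of these passed with any 1 array left out. No pair passed an exact permutation test, which cannot go below 0.1 with 3 arrays against 3. Lrrc34 minus Flvcr2 changed by -0.80 from day 3 to day 5 (95% interval -1.02 to -0.59, limma adjusted p = 2.4e-05), Lrrc34 minus Pde8a by -0.58 (-0.80 to -0.35, adjusted p = 0.00058) and Nat1 minus Flvcr2 by -0.50 (-0.80 to -0.20, adjusted p = 0.0099). The other pairs that passed were Lrrc34 minus Nat1 (-0.30, adjusted p = 0.026), Lrrc34 minus Edil3 (-0.43, adjusted p = 0.021) and Flvcr2 minus Edil3 (0.38, adjusted p = 0.020). All 3 of these calls were lost without the third day 3 array. That of Lrrc34 minus Nat1 was also lost without the first day 3 or the third day 5 array (limma adjusted p up to 0.092), that of Lrrc34 minus Edil3 without the first or the third day 5 array (up to 0.093) and that of Flvcr2 minus Edil3 without the second day 5 array (up to 0.073). Flvcr2 minus Pde8a (0.23, 95% interval -0.02 to 0.47), Nat1 minus Pde8a (-0.27, -0.53 to -0.02), Nat1 minus Edil3 (-0.13, -0.48 to 0.23) and Pde8a minus Edil3 (0.15, -0.14 to 0.43) did not pass.

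**Figure D3:**
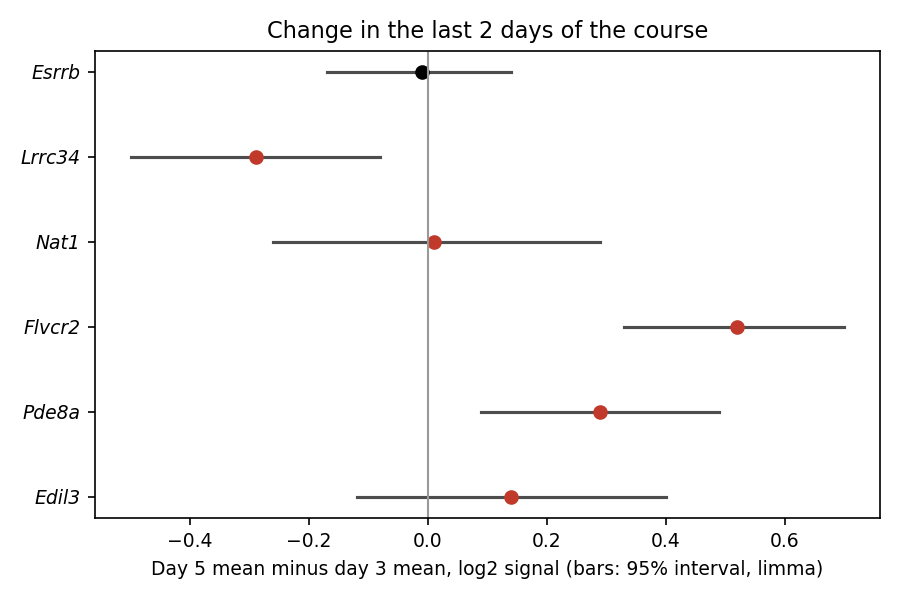
Day 5 mean minus day 3 mean in log2 signal (horizontal axis) for Esrrb and the 5 genes, with 95% intervals from limma as bars. Flvcr2 (0.52) and Pde8a (0.29) lie above 0 with their intervals, Lrrc34 (-0.29) lies below it, and the intervals of Nat1, Edil3 and Esrrb span 0.

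Genes with the most similar course were found by the root mean square difference of the 3 day means, each minus day 0. The course nearest to that of Lrrc34 was that of Esrrb, 0.31 apart on the log2 scale, followed by Nat1 and the junctional adhesion molecule gene Jam2, both 0.61 apart. Nat1 lay nearest to Mgat4c, a gene of the N-acetylglucosaminyltransferase family, at 0.11. Flvcr2 lay nearest to Tfcp2l1, a transcription factor gene of naive pluripotency, at 0.16 and next to Pde8a at 0.17. The change of Tfcp2l1 from day 3 to day 5 was 0.56, beside 0.52 for Flvcr2, and is part of the likeness by which it was found. Pde8a and Edil3 lay 0.08 apart, and Pgam2, the muscle form of phosphoglycerate mutase, lay 0.08 from Edil3 and 0.14 from Pde8a. Edil3 was also near Aspa, the aspartoacylase gene, at 0.20. These distances are descriptions over the means of the same 12 arrays and include the day 1 change that chose the 5 genes, so no test goes with them.

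Relatives were listed for Nat1, Flvcr2, Pde8a and Edil3, and none for Lrrc34. At day 1, 6.45% of all genes were called higher and 4.48% lower than at day 0. Of 7 measured relatives, 1 was called lower by limma, Nat2, and none by the methods' t-test after adjustment. Nat2, a second arylamine N-acetyltransferase gene and the nearest measured neighbor of Nat1 on chromosome 8, averaged 5.96 at day 1 and 6.84 at day 0, a change of -0.88 (SE 0.12, limma adjusted p = 0.00036). It was higher at day 5 (6.35) than at day 3 (5.99, adjusted p = 0.037), where Nat1 differed by 0.01. Whether probes of Nat1 and Nat2 also bind RNA of the other gene was not tested. Nat3, the third gene of the family, was dim and changed by 0.10 (adjusted p = 0.64).

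The relatives of Flvcr2 were Flvcr1 (0.12, adjusted p = 0.23), Mfsd7a (-0.06, adjusted p = 0.71) and Slc49a4 (0.11, adjusted p = 0.22) at day 1, all by limma. Flvcr1, a transporter of heme and choline, was 0.56 higher at day 5 than at day 0 (adjusted p = 7.3e-06), where Flvcr2 changed by -1.83. From day 3 to day 5 Flvcr1 rose by 0.18 (limma adjusted p = 0.046), and Flvcr2 rose by 0.52. Pde8b, the other phosphodiesterase of the PDE8 pair, changed by 0.10 at day 1 (adjusted p = 0.58) and by -0.36 from day 3 to day 5 (adjusted p = 0.0097), when Pde8a changed by 0.29. Mfge8, a secreted protein with the same kinds of domain as Edil3, changed by -0.05 at day 1 (adjusted p = 0.80) and by 0.94 from day 3 to day 5 (adjusted p = 6e-06).

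**Figure D4:**
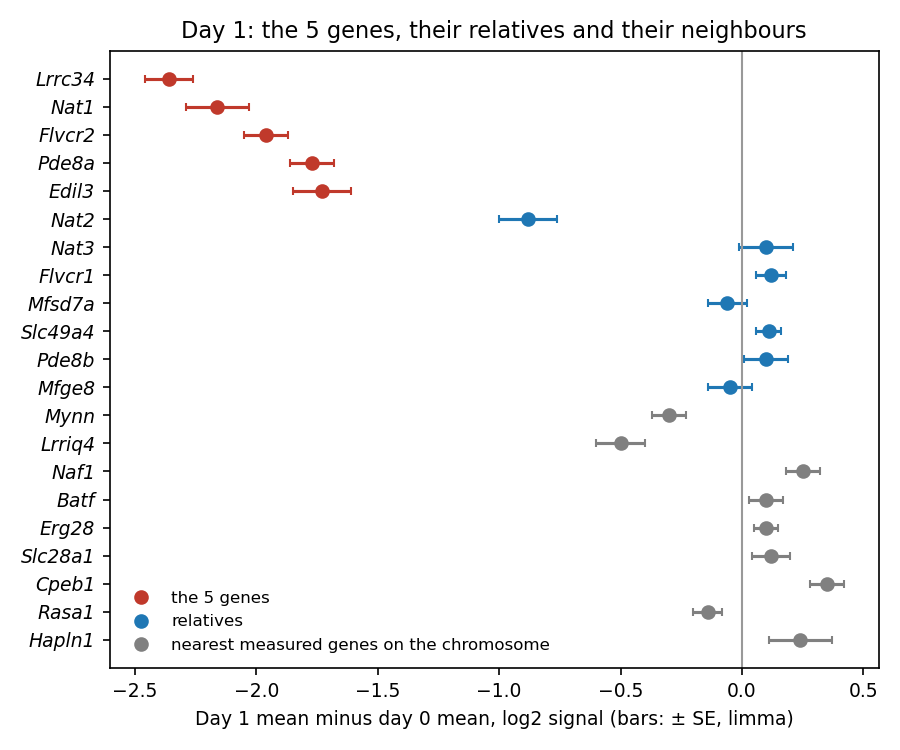
Day 1 mean minus day 0 mean in log2 signal (horizontal axis) for the 5 genes (red), their relatives (blue) and the nearest measured genes on their chromosomes (grey), with bars of 1 SE from limma. The 5 genes lie between -2.36 and -1.73, Nat2 lies at -0.88 and the others lie between -0.50 and 0.35.

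The nearest measured genes on either side were taken from the gene order of the GRCm38.p6 annotation, and at day 1, 3 of these 10 were called lower and 2 higher. Over all genes, 4.48% were called lower and 6.45% higher. On both sides of Lrrc34 on chromosome 3 the neighbor was lower at day 1. The zinc finger gene Mynn changed by -0.30 (SE 0.07, limma adjusted p = 0.013), and Lrriq4, which encodes another leucine-rich repeat protein, by -0.50 (SE 0.10, adjusted p = 0.0059). At day 5 they were 0.60 and 0.73 lower than at day 0 (adjusted p = 1.1e-05 and 6.1e-05). Naf1, on the other side of Nat1 from Nat2, serves in the assembly of box H/ACA ribonucleoproteins and was 0.25 higher at day 1 (adjusted p = 0.028). The neighbors of Flvcr2 on chromosome 12, Batf and Erg28, both changed by 0.10 (adjusted p = 0.42 and 0.31). Next to Pde8a on chromosome 7 the nucleoside transporter gene Slc28a1 changed by 0.12 (adjusted p = 0.40). Cpeb1, which encodes a protein that binds messenger RNA, was 0.35 higher (adjusted p = 0.010). Next to Edil3 on chromosome 13, Rasa1 changed by -0.14 (adjusted p = 0.19) and the matrix link protein gene Hapln1 by 0.24 (adjusted p = 0.31).

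Flvcr2 lies on the same chromosome as Esrrb, with 11 annotated genes between them, of which 5 were measured. These genes were looked at after the values of the 5 were known. Erg28, Ttll5, Ift43 and Gpatch2l changed at day 1 by 0.10, -0.15, 0.03 and -0.05 (limma adjusted p of 0.12 or more), and Tgfb3 by -0.26 (adjusted p = 0.030), against -1.96 for Flvcr2 and -2.46 for Esrrb. Tgfb3, a growth factor gene, was 0.55 higher at day 5 than at day 3 (adjusted p = 7.7e-05), beside 0.52 for Flvcr2.

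The pathways in which the 5 genes work were then read from lists of genes. Counts in these lists stand beside the shares over all genes. At day 1, 6.45% of all genes were called higher and 4.48% lower, and from day 3 to day 5 13.0% higher and 12.2% lower. For cAMP breakdown, the work of Pde8a, 3 of the other 15 phosphodiesterase genes rose at day 1. They were Pde3b (0.72, limma adjusted p = 1.6e-05), Pde2a (0.39, adjusted p = 0.0062) and Pde3a (0.34, adjusted p = 0.0035). No gene of this list was called lower by limma or by the methods' t-test after adjustment, and 2 were lower at an unadjusted limma p under 0.05. The median of the list was 0.06, beside 0.01 for all genes. From day 3 to day 5, 3 of the 15 rose, among them Pde1a (0.98, adjusted p = 8.3e-05) and Pde1b (0.50, adjusted p = 6.6e-05), and 4 fell, among them Pde3b (-0.34, adjusted p = 0.0016) and Pde2a (-0.39, adjusted p = 0.0027).

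Of 19 measured genes for making cAMP and responding to it, 2 fell at day 1. These were Rapgef3, an exchange factor switched on by cAMP (-0.56, limma adjusted p = 0.00096), and the adenylyl cyclase gene Adcy1 (-0.32, adjusted p = 0.0018). Between days 3 and 5, 2 rose, Adcy6 (0.47, adjusted p = 0.0011) and Prkar1a (0.29, adjusted p = 0.0016), and 5 fell, led by Prkar2b, a regulatory subunit of protein kinase A (-0.88, adjusted p = 3.3e-05). The list median at day 1 was -0.06.

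For heme, 2 of 16 genes rose at day 1, both of its breakdown. They were Hmox1, heme oxygenase (0.76, limma adjusted p = 3e-06), and Blvrb, biliverdin reductase B (0.36, adjusted p = 0.014), in a list whose median was 0.10. From day 3 to day 5, 2 of the 16 rose and 3 fell, near the shares of 13.0% and 12.2% over all genes. Blvra, biliverdin reductase A, changed by 0.31 (adjusted p = 0.0017) and Urod, of heme synthesis, by -0.27 (adjusted p = 0.0039). For choline, 3 of 12 fell and 2 rose at day 1, with a median of -0.05. The choline transporter gene Slc44a1 changed by -0.68 at day 1 (adjusted p = 2.1e-05) and by 0.61 from day 3 to day 5 (adjusted p = 1.6e-05). Chpt1, of phosphatidylcholine synthesis, changed by -0.44 at day 1 (adjusted p = 0.00049) and by -0.28 from day 3 to day 5 (adjusted p = 0.0041), and Slc44a2 rose by 0.24 at day 1 (adjusted p = 0.012).

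A list of 8 integrin genes and RGD ligands was read for Edil3. Beside integrin chains it holds other ligands (Mfge8, Vtn and Fn1), so it is not a list of partners of Edil3. None of the 8 was called at day 1 by limma, at an unadjusted p under 0.05, or by the methods' t-test after adjustment. Later, between days 3 and 5, 7 of the 8 rose, with a list median of 0.62. Itgav, the alpha v chain itself, was 0.95 higher (limma adjusted p = 2e-06), Itgb3 0.70 (adjusted p = 2e-05) and Itgb5 0.64 (adjusted p = 1e-05), while Edil3 differed by 0.14 without passing the test. The fibroblast markers did not all move the same way. Col1a1 averaged 9.41 at day 5 and 8.45 at day 3, Col1a2 9.34 and 8.10, and Postn 6.04 and 5.43. Col3a1 averaged 7.85 and 7.45, Dcn 6.53 and 6.10, Lum 4.63 and 4.58, and Pdgfrb 7.26 and 7.20. Lower at day 5 were Thy1 (7.38 and 8.03), Fbln2 (7.33 and 7.67) and Loxl1 (6.79 and 6.84). The part of fibroblast RNA in the rise of the integrin list was not tested. Compared with day 0, where 17.4% of all genes were called higher and 17.6% lower at day 5, 6 of the 8 were higher at day 5.

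Of 12 nucleolar genes, the compartment of Lrrc34, 1 rose at day 1 (Nolc1, 0.23, limma adjusted p = 0.019), with a list median of 0.00. Later, from day 3 to day 5, 7 of the 12 fell, by small amounts, for instance Gnl3 (-0.21, adjusted p = 0.0089) and Polr1b (-0.20, adjusted p = 0.017), and the list median was -0.16 beside -0.29 for Lrrc34. At day 5, 9 of the 12 were lower than at day 0, with a median of -0.25.

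Of 17 measured naive and core pluripotency genes, 11 fell at day 1, with a list median of -0.36. The falls of Tfcp2l1 (-1.70, limma adjusted p = 1e-06), Nr0b1 (-1.0, adjusted p = 0.00017), Nanog (-0.80, adjusted p = 3e-06) and Tbx3 (-0.69, adjusted p = 5.6e-05) were smaller than the changes of all 5 genes, whose choice by size fixes that order. From day 3 to day 5, 5 of the 17 rose and 5 fell. Those that rose were Tfcp2l1, Klf4 (0.48, adjusted p = 0.00030), Nanog (0.37, adjusted p = 0.00056), Klf5 (0.28, adjusted p = 0.0042) and Stat3 (0.26, adjusted p = 0.0094). Those that fell included Fgf4 (-0.80, adjusted p = 4e-05), Tcl1 (-0.44, adjusted p = 0.0097) and Pou5f1, which encodes Oct4 (-0.37, adjusted p = 0.0016). In that comparison Flvcr2 and Pde8a were called higher and Lrrc34 lower. The call of Pde8a was lost under 9 of 23 alternatives, and that of Lrrc34 under 15.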

How the data were processed

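Messenger RNA of mouse ESCs was measured on 12 arrays. The authors normalized the arrays by Robust Multichip Average (RMA) in Affymetrix Expression Console and deposited log2 signals, 1 value per probe set and array. RMA subtracts background and brings arrays to 1 distribution. Changes of dim genes can be compressed on arrays, which was not tested here. Software versions and genome build are not given in the sources used here. The number of arrays limits the precision, and there is no read depth. No further scaling was applied.

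Of 35557 probe sets, 21789 had 1 gene symbol in the platform annotation, and these were averaged into 19938 genes. Of their identifiers, 21698 were found in RefSeq (GRCm38.p6). Each of the 5 genes has 1 probe set. Genes were fitted with limma 3.58.1 in R 4.3.3 with 1 mean for each day (8 residual and 4.63 prior degrees of freedom), with two-sided tests, Benjamini-Hochberg adjustment over all genes, a threshold of 0.05 and 95% intervals. Differences between 2 of the 5 genes were fitted together with the differences of 9966 disjoint pairs of other genes, which set the prior spread, a test added after the data were seen. An exact permutation test of 3 against 3 arrays, which cannot go below 0.1, was also run on the 10 pairs and called none. In this exact permutation test 7 pairs reached p = 0.1, and the lowest exact permutation p adjusted over the pairs was 0.14. It could not have called any pair at 0.05, so the calls given for pairs rest on limma alone. The model was tested on simulated data. Tables and plots used Python 3.11.15, pandas 2.3.3, numpy 2.4.6, scipy 1.17.1 and matplotlib 3.10.9.

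The 5 genes, the gene lists and the rules for the genes named were chosen with earlier results of these data known. Named are the 5 genes and Esrrb, their relatives, nearest measured neighbors, genes of most similar course and next rank, and in each other list up to 4 genes of smallest p at day 1 or from day 3 to day 5, with those of opposite direction. Tgfb3, Ttll5, Ift43 and Gpatch2l were added after their values were seen. Alternatives were a replicate block, each array left out, a filter on dim genes, 2 scalings, the brightest or every probe set, trended robust variance, array weights, a fit of the compared days only and the methods' t-test. The last is the equal-variance t-test that the study's methods give for day 1 against day 0. Its use for other days and its Benjamini-Hochberg adjustment were added here. The study's other measurements were not analysed here.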

Additional observations from a re-analysis of the deposited data

How the results depend on the processing

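The changes of the 5 genes from day 0 to days 1, 3 and 5 kept their sign in all 309 recomputed values. There are none for Nat1 and Edil3 where dim genes were left out, since both are then removed. All stayed within 1 SD, but the settings allowed little else, so the count does not show robustness. Leaving out 1 of 3 arrays cannot move a day mean by 1 SD of that day. Of the other settings, only the scalings and array weights can alter these changes. Over the others the day 1 change was -2.37 to -2.34 for Lrrc34, -2.18 to -2.16 for Nat1 and -1.98 to -1.96 for Flvcr2. It was -1.79 to -1.77 for Pde8a and -1.75 to -1.73 for Edil3. In day 5 against day 3, Flvcr2 passed under every alternative except the methods' t-test with adjustment (0.52, adjusted p = 0.055), and its change ranged from 0.44 to 0.61 with 1 array left out. Pde8a lost its call in 9 of 23 alternatives. Its change was 0.29 with the replicate block (adjusted p = 0.054), with every probe set (0.067), with the compared days only (0.059) and under the methods' t-test (0.19 adjusted, 0.063 unadjusted), and 0.20 to 0.38 with 1 array left out. Lrrc34 lost its call in 15 of 23. Its change was -0.29 with the replicate block (adjusted p = 0.059), with every probe set (0.089), with the compared days only (0.091) and under the methods' t-test (0.25 adjusted, 0.10 unadjusted), -0.26 with centred arrays (0.059), and -0.40 to -0.19 with 1 array left out. Nat1 ranged from -0.07 to 0.15 with 1 array left out and was negative without the third day 3 array (-0.04), the second day 5 array (-0.072) or the third day 5 array (-0.04). Edil3 ranged from 0.06 to 0.23 and was called under no alternative run. The difference Nat1 minus Edil3, not called at -0.13, ranged from -0.298 to 0.0184 with 1 array left out, with the positive value without the first day 5 array, and Nat1 minus Pde8a passed with the replicate block (adjusted p = 0.037).

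Genes called at day 1 against day 0 numbered 1286 higher and 894 lower, 734 to 1384 and 502 to 971 with 1 array left out (811 higher without the first day 0 array, 807 and 550 without the first day 1 array, 797 higher without the second, 734 and 502 without the third), 619 and 401 by the methods' t-test adjusted, and 2677 and 1769 unadjusted. The adjusted t-test called 2274 higher and 2099 lower at day 5 against day 0 (limma 3474 and 3506), and 1415 and 1239 at day 5 against day 3 (limma 2601 and 2442). The labels do not say whether the replicate numbers pair the arrays. Of 18 pairs with the same number, 0 had deviations that correlate over 0.1 (-0.17 to 0.071), which does not exclude pairing. The block gave 1069 higher and 773 lower calls at day 1 and, besides Lrrc34 and Pde8a, changed no call of the 5 genes. Where no value shows why a call was lost, the cause was not tested. With 3 arrays a day, intervals of Nat1 and Edil3 span about 0.5 log2 units, and their signals lie under the 25th percentile of genes.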
